A study of Homo sapiens with 4 samples.

Results

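The gene set comprised 38 genes of glycolysis and its inlets and outlets: glucose transporters, the glycolytic enzymes with their isoenzymes, lactate dehydrogenase, the enzymes that gate pyruvate entry into mitochondria, lactate carriers and glycogen enzymes. They were chosen by name as a pathway list, with earlier results of these data known. Each symbol mapped to 1 Ensembl identifier among the 58884 genes of the deposited table. RNA of 2 human thyroid cancer cell lines was sequenced in 4 libraries, 1 per group: 8505C with a CRABP1 overexpression vector, 8505C with an empty vector, FTC-133 with the CRABP1 vector and FTC-133 with the empty vector. 8505C came from an anaplastic and FTC-133 from a follicular thyroid carcinoma. All 4 groups were transfected, so no untransfected cells enter any comparison, and each line stands for a single tumour. CRABP1 is a cytoplasmic binding protein for retinoic acid.

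Glycolysis splits glucose into pyruvate. Glucose enters through facilitative transporters, hexokinase traps it as glucose 6-phosphate, phosphofructokinase commits it to the pathway, and the later enzymes of the triose phosphates yield ATP. Lactate dehydrogenase turns pyruvate into lactate, which monocarboxylate carriers export, whereas pyruvate dehydrogenase sends pyruvate into the mitochondria. Many tumours, dedifferentiated thyroid carcinoma among them, keep a high glycolytic rate in the presence of oxygen, and many of these genes are known targets of hypoxia-inducible factors.

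CRABP1 was at 537 and 385 TPM (reads per gene length, scaled to the same total in every library) in the CRABP1 libraries of 8505C and FTC-133, and at 0 in both vector libraries. Against the level of 3 reads in the vector library of the same line, it was at least 905-fold higher in 8505C and 694-fold higher in FTC-133. The libraries held between 19174556 and 20331459 recovered reads, and mitochondrially encoded genes took between 25.9% and 28.6% of the TPM. Of the thyroid follicular markers, TG, TSHR and SLC5A5 stayed below 1 TPM in every library. PAX8 was at 143 and 100.1 TPM in FTC-133 with CRABP1 and with vector, and NKX2-1 at 113 and 118 TPM in 8505C. As means of log2 (TPM + 1) over the libraries of a line, PAX8 was at 0.26 in 8505C and NKX2-1 at 4.87 in FTC-133. Of the 10 thyroid markers listed, 2 were at 1 TPM or more in each 8505C library. In FTC-133 there were 4 with CRABP1 and 5 with vector. PAX8 and FOXE1 thus marked the labelled thyroid origin in FTC-133 only. The FOXE1 means were 0.08 in 8505C and 3.60 in FTC-133. NKX2-1 and HHEX marked it in both lines and were higher in 8505C. For HHEX the means were 4.70 in 8505C and 3.30 in FTC-133. TG, TSHR and SLC5A5 marked it in neither line. Epithelial markers summed to 1833 and 2208 TPM in 8505C and to 379 and 343 TPM in FTC-133, with CRABP1 and with vector. Most of this came from KRT7, KRT8 and KRT18. Libraries of 8505C each held 3 of the 6 epithelial markers at 1 TPM or more, and those of FTC-133 each held 5. EPCAM went the other way from the sums, with a mean log2 level of 0.47 in 8505C and 2.81 in FTC-133. Fibroblast markers summed to 72.1 and 55.1 TPM in 8505C and to 504 and 776 TPM in FTC-133. There COL1A1 was at 175 TPM with CRABP1, against 388 TPM with vector. COL1A1, COL1A2, PDGFRB and THY1 had higher mean log2 levels in FTC-133. COL3A1 and DCN went the other way, with 5.87 and 1.46 in 8505C and 2.02 and 0.38 in FTC-133. Among the 5 fibroblast markers averaging 1 TPM or more in FTC-133, 4 were lower and 1 was higher with CRABP1. Endothelial markers summed to 100.6 and 108 TPM in 8505C, nearly all CDH5, and to 15.3 and 9.93 TPM in FTC-133. At 1 TPM or more were 2 of these 6 in each 8505C library and 4 in each FTC-133 library. CDH5 and PECAM1 had higher mean log2 levels in 8505C. ERG, TEK and KDR had higher ones in FTC-133, at 2.51, 1.93 and 1.83, against 0, 0.52 and 0.53 in 8505C. Immune markers were at 1 TPM or more only for CD14, at 28.6 and 56.5 TPM in 8505C, while PTPRC was at most 0.194 TPM, and HBA1, HBA2 and HBB were at 0 in every library. The part of these markers in the results below was not tested.

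The bases around the transcription starts of 4 members are shown because their genes cover the main directions described below: SLC2A1, PGK1 and LDHA were lower with CRABP1 in both lines, and PDK3 was higher in both. The windows are from RefSeq (GRCh38.p14), run from 250 bases before to 50 bases after a start, and are printed 5′ to 3′ on the gene's strand. Capitals mark the core of the hypoxia response element, ACGTG or GCGTG, on either strand, where the reverse strand reads CACGT or CACGC. The windows lie at chr1:42958819-42959118 on the minus strand for SLC2A1, and on the plus strand at chrX:78103998-78104297 for PGK1, chr11:18394313-18394612 for LDHA and chrX:24465036-24465335 for PDK3.
SLC2A1: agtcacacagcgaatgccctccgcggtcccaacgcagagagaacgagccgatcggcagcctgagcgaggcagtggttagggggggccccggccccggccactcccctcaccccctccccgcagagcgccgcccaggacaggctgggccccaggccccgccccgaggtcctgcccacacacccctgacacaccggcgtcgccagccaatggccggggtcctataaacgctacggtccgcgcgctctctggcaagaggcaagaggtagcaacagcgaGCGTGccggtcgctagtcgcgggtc
PGK1: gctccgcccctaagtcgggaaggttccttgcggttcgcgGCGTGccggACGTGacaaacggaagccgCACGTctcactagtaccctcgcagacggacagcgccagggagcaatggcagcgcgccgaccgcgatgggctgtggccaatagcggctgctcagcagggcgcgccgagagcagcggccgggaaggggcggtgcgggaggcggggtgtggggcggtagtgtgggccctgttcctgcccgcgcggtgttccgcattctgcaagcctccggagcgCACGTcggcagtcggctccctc
LDHA: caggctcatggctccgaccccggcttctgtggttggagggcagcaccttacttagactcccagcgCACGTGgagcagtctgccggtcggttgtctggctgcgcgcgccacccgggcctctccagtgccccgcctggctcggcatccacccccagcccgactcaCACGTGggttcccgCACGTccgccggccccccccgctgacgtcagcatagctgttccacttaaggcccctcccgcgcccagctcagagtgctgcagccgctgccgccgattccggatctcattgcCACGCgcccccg
PDK3: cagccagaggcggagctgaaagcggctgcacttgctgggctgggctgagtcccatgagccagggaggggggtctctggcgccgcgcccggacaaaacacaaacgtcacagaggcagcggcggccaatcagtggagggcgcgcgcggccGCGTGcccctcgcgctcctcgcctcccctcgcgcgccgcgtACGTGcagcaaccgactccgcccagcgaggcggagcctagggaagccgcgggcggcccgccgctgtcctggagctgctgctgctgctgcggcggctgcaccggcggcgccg

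LDHA had 2 windows, and the other one (chr11:18396101-18396400), not printed, held 1 GCGTG and no ACGTG. The printed window of LDHA held 5 copies of ACGTG and 1 of GCGTG, because the palindrome CACGTG counts once on each strand and occurred at 2 places. PGK1 had 3 copies of ACGTG and 1 of GCGTG, PDK3 had 1 of each, and SLC2A1 had 1 GCGTG after the start. RefSeq windows were found for 35 of the 38 members, 67 windows in all, and none were matched for SLC2A3, PFKFB2 and SLC16A1. Either core occurred in 43 of the 67 windows (64.2%), against 48.4% of all 35116 windows of this length and 54.7% of the 22199 windows of protein-coding genes. For ACGTG alone the shares were 37.3% of members' windows and 23.0% of coding windows, and for GCGTG alone 44.8% and 43.0%. CACGTG, which contains ACGTG on both strands and is also the E-box bound by MYC, was in 13.4% and 8.34%. Counted by gene, at least 1 window with a core was found for 22 of the 23 matched members lower with CRABP1 in both lines, 5 of the 5 matched members higher in both and 3 of the 4 matched members that split. The share of all genes with such a window was not computed, and genes with more windows reach it more easily. Counted by window, the numbers were 31 of 48, 6 of 12 and 3 of 4. PFKM alone gave 7 of the 12 windows, 2 of them with a core. Those 2 windows overlap and hold the same ACGTG, so a site can be counted more than once by window. A match describes these letters in this window and shows no binding.

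Most of the set was lower in CRABP1 cells than in vector cells, by small amounts in 8505C and by larger ones in FTC-133. The summed TPM of all 38 genes was 13361 with CRABP1 and 15027 with vector in 8505C, 11.1% lower, and 9518 with CRABP1 and 13503 with vector in FTC-133, 29.5% lower. Ratios below are log2 of (TPM + 1) with CRABP1 over vector, which understates changes of genes near 1 TPM, for genes that averaged 1 TPM or more in the compared libraries of a line. In 8505C, 35 of 38 members passed that filter, and 26 were below 0 and 9 above, with a median of -0.17. In the same line 45.3% of all 17561 genes tested were below 0 and 54.7% above, with a median of 0.02. In FTC-133, 36 members passed, with 25 below 0, 11 above and a median of -0.30, where 42.2% of all 19899 genes tested were below 0, 57.8% above, and their median was 0.06. In bulk RNA, fewer cells that express a gene and less RNA per cell cannot be told apart. Each group had 1 library, so none of these differences has a replicate error and no p-value was computed within a line.

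Of the 35 members measured in both lines, 23 were lower with CRABP1 in both, against 19.4% of the 15580 genes measured in both, and 7 were higher in both, against 32.5%. The other members split: GBE1 and PDHB were higher in 8505C and lower in FTC-133, and SLC2A3, SLC2A6 and SLC2A12 were the other way round, SLC2A12 at 0.03 in FTC-133 and below 0 under both other scalings. Among the 23 lower in both, 19 lay farther from 0 in FTC-133. No member reached 2-fold in 8505C, where 3.7% of genes were 2-fold higher and 4.07% 2-fold lower. In FTC-133 SLC2A3 was the only member 2-fold higher and SLC2A1 the only one 2-fold lower, against 6.02% and 4.92% of all genes. For protein-coding genes with at least 20 reads, these shares were 0.241% and 0.5% in 8505C, and 2.06% and 1.46% in FTC-133. By a 1.5-fold rule, 0 members were higher and 2 lower in 8505C, against 7.39% and 7.64% of all genes. In FTC-133 that rule gave 3 higher and 9 lower, against 13.1% and 9.69%. With 95% Clopper-Pearson intervals on the plain TPM ratio, which cover counting error only, 19 members had an interval below 1 in both lines and 5 had one above 1 in both. Over the 15557 genes measured in both lines and with a known length, these shares were 3.48% and 7.02%. The interval narrows with the read number, and these genes were not matched to the members on reads. Because the members were chosen with earlier results of these data known, the shares beside all genes describe them and are no test.

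**Figure D1:**
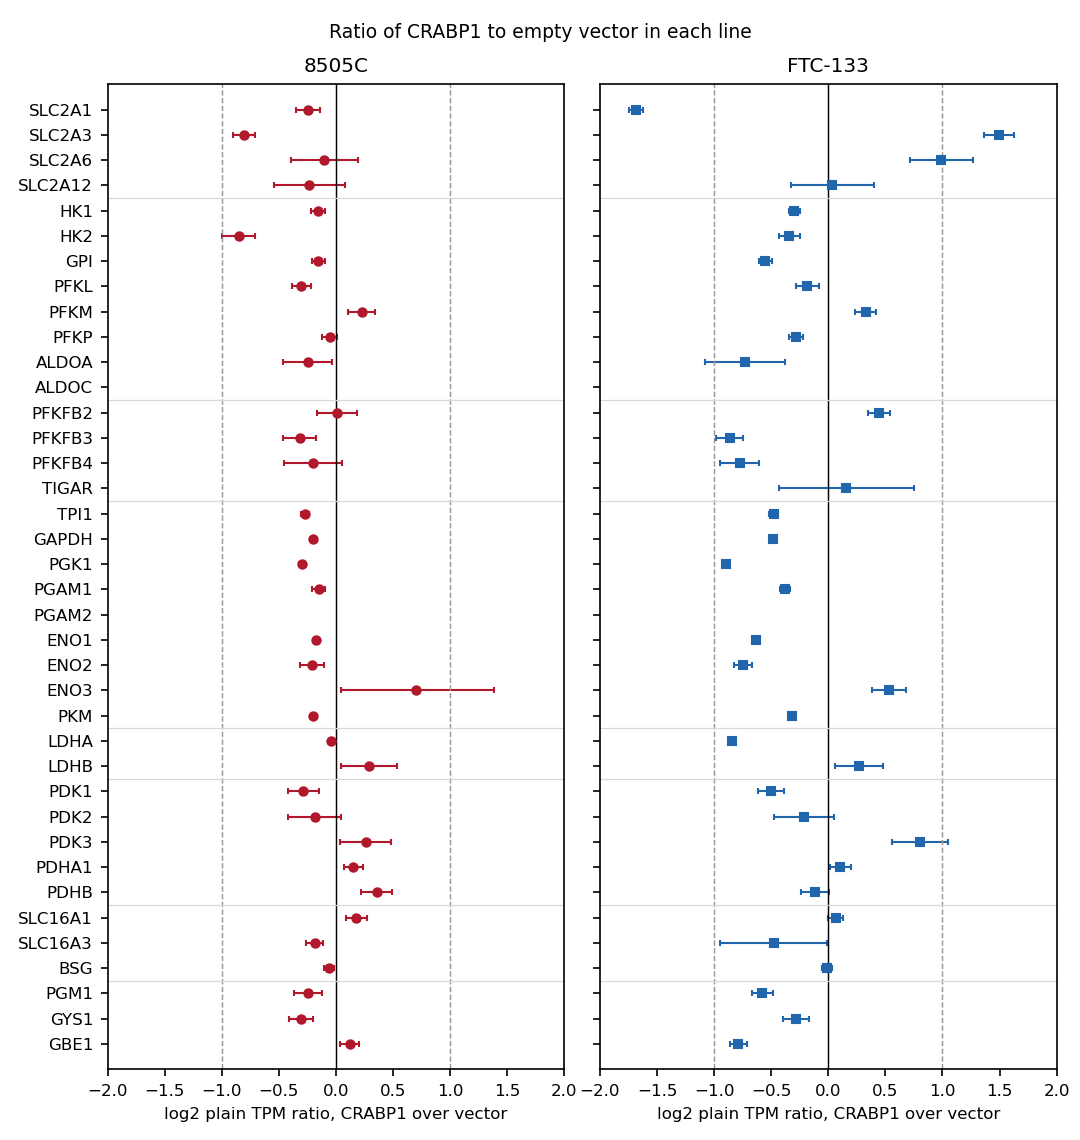
CRABP1 over empty vector for each member, as log2 of the plain TPM ratio with its 95% counting interval, in 8505C and in FTC-133, with dashed lines at 2-fold. Members that did not pass the filter in a line have no point there. Most points lie left of 0 in both lines, and SLC2A1 and SLC2A3 lie past the dashed lines on opposite sides in FTC-133.

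Over both lines together, where the lines act as replicates of the transfection, 0 of the 36 members tested passed limma's test in either direction (Benjamini-Hochberg adjusted p under 0.05, 1 residual degree of freedom). The smallest adjusted p of a member was 0.920 in limma. Across all 19513 genes, 0.00512% passed as higher, which was CRABP1 itself, and 0% passed as lower. At an unadjusted p under 0.05 there were 7 of the 36 members, against 923 of all 19513 genes. The 7 were HK2, PFKFB3, TPI1, PGK1, PGM1 and GYS1 with negative differences, and ENO3 with a positive one. Whether each library is its own culture is not stated, so p-values here measure only the spread between these libraries. All statements of higher or lower with CRABP1 below are values of single libraries.

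Both members past 2-fold were glucose transporters. SLC2A1 encodes GLUT1, the basal glucose transporter of most cells, at chr1:42925375-42959176 on the minus strand (GRCh38, GENCODE 29, as for the genes below). Its level was 59.2 TPM in 8505C with CRABP1, against 70.1 TPM with vector. In FTC-133 it was 105 TPM with CRABP1, against 338 TPM with vector. FTC-133 with vector was thus the highest of the 4 libraries, and the other libraries lay within a much narrower band. The plain ratio was 0.844 (95% interval 0.786 to 0.906) in 8505C and 0.311 (0.297 to 0.325) in FTC-133, with log2 ratios of -0.24 and -1.68.

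SLC2A3 encodes GLUT3, a transporter of high affinity best known from neurons, at chr12:7919230-7936275 on the minus strand. It was at 41.2 TPM in 8505C with CRABP1, against 72.0 TPM with vector, and at 55.6 TPM in FTC-133 with CRABP1, against 19.7 TPM with vector. The lines thus lay on opposite sides of 1, and the vector libraries held both the highest and the lowest level. The plain ratio was 0.572 (0.534 to 0.613) in 8505C and 2.82 (2.58 to 3.09) in FTC-133, with log2 ratios of -0.79 and 1.45. SLC2A14, a near-identical copy whose reads may be exchanged with those of SLC2A3, was at or below 0.46 TPM in every library.

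SLC2A6, an intracellular hexose transporter of lysosomes, was at 10.3 TPM in 8505C with CRABP1, against 11.0 TPM with vector, and at 17.3 TPM in FTC-133 with CRABP1, against 8.74 TPM with vector. Its ratio of 1.98 (1.64 to 2.40) in FTC-133 lay just under 2-fold, while the interval in 8505C (0.759 to 1.14) held 1. SLC2A12, a transporter of the same family, lay between 5.34 and 8.36 TPM and its interval held 1 in both lines. Of the SLC2A12 transcript, 38.9% is also covered by TBPL1 on the opposite strand, whose reads cannot be told apart without a stated strand setting. Summed over the 4 transporters, the level was 118 TPM with CRABP1 and 162 TPM with vector in 8505C, and 184 TPM with CRABP1 and 372 TPM with vector in FTC-133.

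The makeup of transporter RNA therefore differed. SLC2A1 made 50.2% of the summed TPM of the 4 transporters in 8505C with CRABP1 and 43.4% with vector. In FTC-133 it made 57.3% with CRABP1 and 90.9% with vector. SLC2A3 made 35.0% and 44.6% in 8505C, and 30.3% and 5.30% in FTC-133, with CRABP1 and with vector in that order. The vector library of FTC-133 was the one in which a single transporter predominated. Counting every SLC2A gene in the table gave SLC2A1 41.5% with CRABP1 and 79.5% with vector in FTC-133. Of the genes outside the set, SLC2A10 held 16.1% with CRABP1 and 5.43% with vector, SLC2A13 6.47% and 4.36%, and SLC2A8 2.64% and 1.57%.

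**Figure D2:**
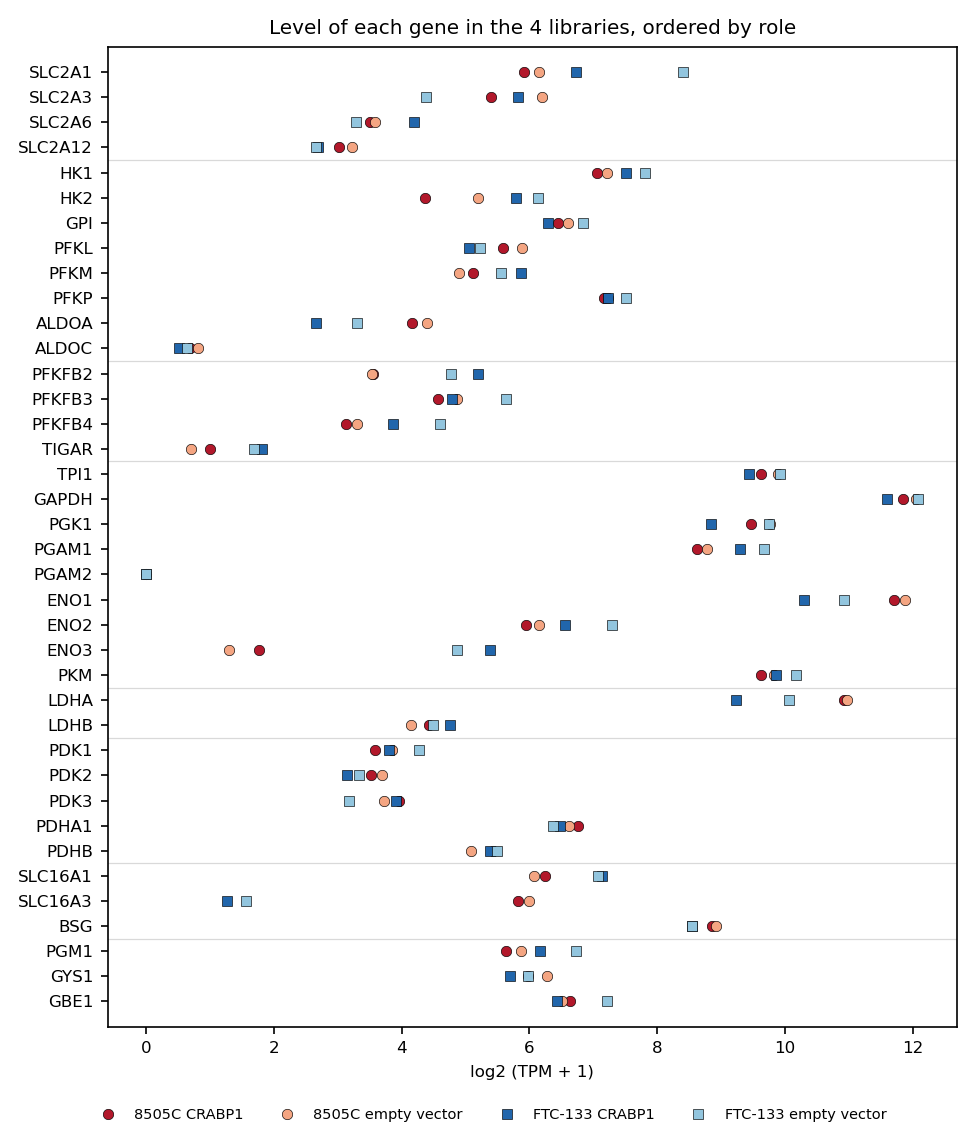
Level of each member as log2 (TPM + 1) in the 4 libraries, 1 point per library, ordered by role with lines between roles. SLC2A1 is highest in FTC-133 with vector (338 TPM), and SLC16A3 is at 1.41 and 1.96 TPM in FTC-133 with CRABP1 and with vector, far left of 8505C.

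HK1 and HK2, hexokinases that phosphorylate glucose on entry, were lower with CRABP1 in both lines. HK1, the housekeeping form, was at 132 TPM with CRABP1, against 148 TPM with vector, in 8505C, and at 181 TPM, against 223 TPM, in FTC-133. HK2 (chr2:74833981-74893359, plus strand), the inducible form often raised in tumours, was at 19.7 TPM with CRABP1, against 35.5 TPM with vector, in 8505C, and at 54.4 TPM, against 69.0 TPM, in FTC-133. The difference in HK2 was wider in 8505C, with a plain ratio of 0.554 (0.501 to 0.612), than in FTC-133, with 0.789 (0.741 to 0.840). HK2 thus had the lowest log2 ratio of all members in 8505C, at -0.82, and it is one of the 4 members lower in both lines that lay farther from 0 in 8505C.

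HK2 made 12.9% of HK1 and HK2 together in 8505C with CRABP1, against 19.4% with vector. In FTC-133 the HK2 share was 23.1% with CRABP1 and 23.6% with vector, within counting error. A further gene, HKDC1, which encodes a hexokinase domain protein, was at 73.0 TPM with CRABP1 and 30.9 TPM with vector in FTC-133, and at 2.99 and 3.12 TPM in 8505C. Counted among hexokinases it took 23.5% with CRABP1 and 9.54% with vector in FTC-133, and the share of HK1 was then 58.4% with CRABP1 and 68.8% with vector. The HK1 share in FTC-133 thus depended on whether HKDC1 was counted.

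**Figure D3:**
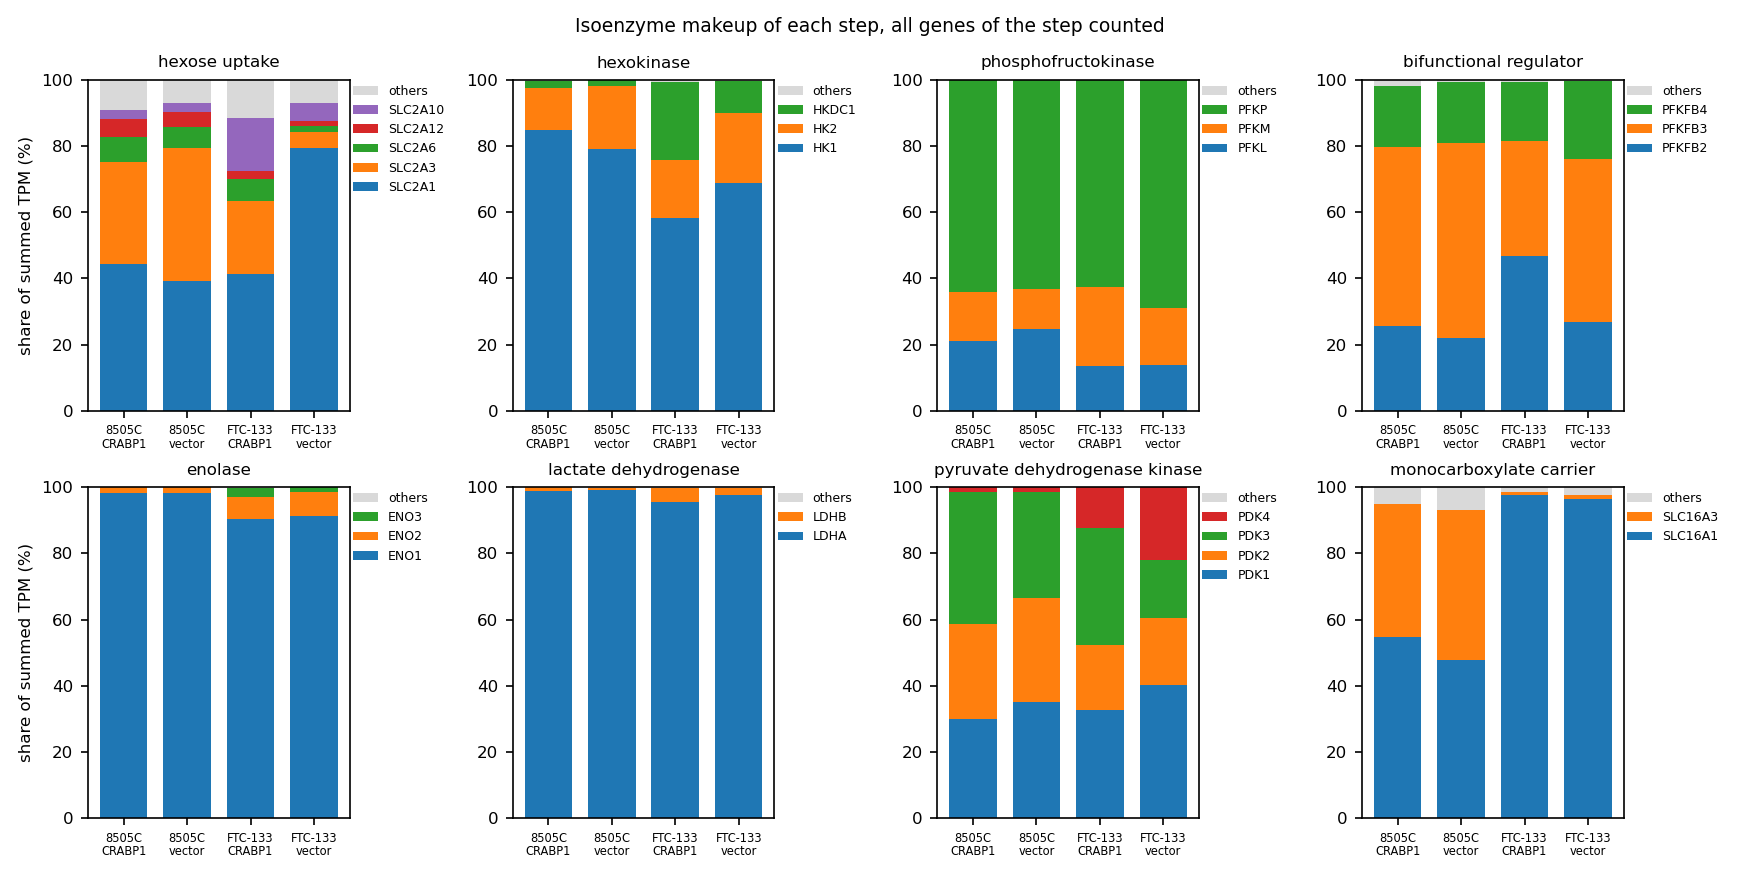
Share of each isoenzyme in the summed TPM of its step, in percent, with every gene of the step counted, for the 4 libraries. SLC2A1 fills 79.5% of hexose uptake in FTC-133 with vector, HKDC1 is visible in FTC-133, and SLC16A3 fills 40.2% and 45.3% in 8505C with CRABP1 and with vector, against 0.981% and 1.41% in FTC-133.

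GPI, which interconverts glucose 6-phosphate and fructose 6-phosphate, was at 86.5 TPM with CRABP1, against 96.4 TPM with vector, in 8505C, and at 77.6 TPM, against 114 TPM, in FTC-133. Of the phosphofructokinase genes, PFKP (platelet type) was the most abundant, at 143 and 149 TPM in 8505C and 149.6 and 182 TPM in FTC-133, with CRABP1 and with vector. PFKL (liver type) was at 46.8 TPM with CRABP1, against 57.9 TPM with vector, in 8505C, and at 32.1 TPM, against 36.4 TPM, in FTC-133. PFKM (muscle type) lay on the other side: it was at 33.6 TPM with CRABP1, against 28.8 TPM with vector, in 8505C, and at 57.5 TPM, against 45.8 TPM, in FTC-133. Both PFKM ratios, 1.17 (1.08 to 1.27) and 1.25 (1.18 to 1.34), had intervals above 1. The PFKM share of the 3 genes was 15.0% and 12.2% in 8505C, and 24.0% and 17.3% in FTC-133, with CRABP1 and with vector.

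The PFKFB genes encode bifunctional enzymes that set the level of fructose 2,6-bisphosphate, an activator of phosphofructokinase. PFKFB3, the form with the highest ratio of kinase to phosphatase activity, was at 22.7 TPM with CRABP1, against 28.2 TPM with vector, in 8505C, and at 26.6 TPM, against 48.4 TPM, in FTC-133. PFKFB4 was at 7.72 TPM with CRABP1, against 8.88 TPM with vector, in 8505C, and at 13.6 TPM, against 23.2 TPM, in FTC-133. Both were thus lower in FTC-133 with CRABP1, by ratios of 0.549 (0.505 to 0.597) and 0.585 (0.519 to 0.658). PFKFB2 was at 10.7 and 10.6 TPM in 8505C, and at 35.8 TPM with CRABP1, against 26.3 TPM with vector, in FTC-133. In FTC-133 it made 47.1% of the 3 genes with CRABP1 and 26.9% with vector, so that PFKFB2 and not PFKFB3 was the most abundant form in the CRABP1 library. TIGAR, a phosphatase that lowers fructose 2,6-bisphosphate, was at 2.51 TPM or less in every library, and 61.5% of its transcript is shared with a readthrough gene on the same strand, so its level is uncertain.

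The enzymes of the triose phosphates held the largest part of the set, with a summed TPM of 9779.9 with CRABP1 and 11264 with vector in 8505C, and 7192 and 10273 in FTC-133. GAPDH, the dehydrogenase often used as a reference gene, was at 3699.9 TPM with CRABP1, against 4263 TPM with vector, in 8505C, and at 3105 TPM, against 4354 TPM, in FTC-133. Its ratio was thus 0.868 (0.858 to 0.878) in 8505C and 0.713 (0.705 to 0.721) in FTC-133. PGK1, the kinase that makes the first ATP of the pathway, was at 704 TPM with CRABP1, against 865 TPM with vector, in 8505C, and at 460.3 TPM, against 858 TPM, in FTC-133. Its ratio of 0.537 (0.526 to 0.548) in FTC-133 was the lowest among these enzymes, beside 0.814 (0.799 to 0.829) in 8505C.

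TPI1, which interconverts the triose phosphates, had ratios of 0.829 (0.808 to 0.851) in 8505C and 0.718 (0.699 to 0.736) in FTC-133. PGAM1, the phosphoglycerate mutase, was at 393 and 437 TPM in 8505C and at 625 and 813 TPM in FTC-133, with CRABP1 and with vector. PKM, the pyruvate kinase of the last step, was at 789 and 907 TPM in 8505C and at 923 and 1150.5 TPM in FTC-133, in the same order. All of these were lower with CRABP1 in both lines. Processed pseudogenes exist for GAPDH, ENO1, PGK1, LDHA, TPI1 and PGAM1, and reads shared with them may be counted differently.

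ENO1, the ubiquitous enolase, was at 3341 TPM with CRABP1, against 3768 TPM with vector, in 8505C, and at 1254 TPM, against 1950.0 TPM, in FTC-133. ENO2, the neuronal form, was at 60.8 TPM with CRABP1, against 70.3 TPM with vector, in 8505C, and at 92.7 TPM, against 156 TPM, in FTC-133. ENO3 (chr17:4948092-4957131, plus strand), the muscle form, was at 2.39 TPM with CRABP1, against 1.47 TPM with vector, in 8505C, and at 40.5 TPM, against 28.0 TPM, in FTC-133. ENO3 was thus higher with CRABP1 in both lines while its relatives were lower, with a ratio of 1.44 (1.31 to 1.60) in FTC-133 and of 1.63 (1.03 to 2.62), from 52 and 32 reads, in 8505C. ENO1 still made 98.1% of enolase RNA in both 8505C libraries, and 90.4% with CRABP1 and 91.4% with vector in FTC-133.

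ALDOA, ALDOC and PGAM2 allow little reading. ALDOA was at 16.82 and 19.98 TPM in 8505C and at 5.32 and 8.82 TPM in FTC-133, with CRABP1 and with vector. Of its transcript, 82.6% is shared with a readthrough gene on the same strand, so this level, low for the main aldolase, is uncertain. ALDOC, the brain aldolase, was below 1 TPM in every library. PGAM2, the muscle mutase, was listed at 0 in all 4, which allows up to 0.690 TPM at 3 reads, and DBNL on the opposite strand covers 100% of its transcript.

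Lactate dehydrogenase differed in its ratio between the lines, a difference that was not tested. LDHA (chr11:18394388-18408425, plus strand), the subunit that favours lactate formation, was at 1934 TPM in 8505C with CRABP1, against 1997 TPM with vector. In FTC-133 it was at 598 TPM with CRABP1, against 1073 TPM with vector. The ratio was 0.969 (0.958 to 0.979) in 8505C, close to 1, and 0.557 (0.548 to 0.567) in FTC-133. LDHB, the subunit that favours pyruvate formation, was at 20.4 TPM with CRABP1, against 16.7 TPM with vector, in 8505C, and at 25.9 TPM, against 21.6 TPM, in FTC-133. LDHB thus lay on the other side of 1, but 64.6% of its transcript is shared with a readthrough gene on the same strand, and its level is uncertain. LDHA made 99.0% and 99.2% of the pair in 8505C, and 95.8% and 98.0% in FTC-133, with CRABP1 and with vector.

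Pyruvate dehydrogenase kinases inhibit the entry of pyruvate into mitochondria. PDK1, the form induced by hypoxia, was at 11.0 TPM with CRABP1, against 13.4 TPM with vector, in 8505C, and at 12.9 TPM, against 18.3 TPM, in FTC-133. PDK3 was at 14.6 TPM with CRABP1, against 12.2 TPM with vector, in 8505C, and at 14.1 TPM, against 8.08 TPM, in FTC-133. These forms thus lay on opposite sides of 1, with PDK1 ratios of 0.820 (0.747 to 0.900) and 0.707 (0.652 to 0.766), and PDK3 ratios of 1.20 (1.03 to 1.40) and 1.74 (1.47 to 2.07), in 8505C and FTC-133. Among the 3 kinases PDK3 made 40.4% with CRABP1 and 22.8% with vector in FTC-133, where PDK1 made 37.0% and 51.5%. In the CRABP1 library the intervals of PDK3 (37.6 to 43.3%) and PDK1 (34.7 to 39.5%) overlapped, so their order there lies within counting error, whereas PDK1 was the most abundant of the 3 in the vector library. PDK4, counted as well, was at 4.84 TPM with CRABP1 and 9.90 TPM with vector in FTC-133 and below 0.6 TPM in 8505C.

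PDK2 was at 10.5 and 11.9 TPM in 8505C and at 7.85 and 9.08 TPM in FTC-133, with intervals that held 1 in both lines. PDHA1 and PDHB encode the subunits of the pyruvate dehydrogenase component itself. PDHA1 was at 108 TPM with CRABP1, against 96.9 TPM with vector, in 8505C, and at 87.9 TPM, against 81.6 TPM, in FTC-133. PDHB was at 42.3 TPM with CRABP1, against 33.0 TPM with vector, in 8505C, a ratio of 1.28 (1.17 to 1.41), and at 40.7 TPM, against 44.2 TPM, in FTC-133, where the interval held 1. A gene on the opposite strand covers 61.4% of the PDK2 transcript and 28.9% of the PDHA1 transcript.

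The ratios of the lactate carriers and their chaperone lay between 0.720 and 1.13. SLC16A1 (MCT1) was at 75.1 TPM with CRABP1, against 66.4 TPM with vector, in 8505C, and at 140.3 TPM, against 134 TPM, in FTC-133. SLC16A3 (MCT4; chr17:82228397-82261129, plus strand), the carrier of low affinity that exports lactate from glycolytic cells, was at 55.2 TPM with CRABP1, against 62.9 TPM with vector, in 8505C, and at 1.41 TPM, against 1.96 TPM, in FTC-133. BSG (basigin), the chaperone that brings both carriers to the membrane, lay between 371 and 482 TPM. Its ratio was 0.958 (0.930 to 0.986) in 8505C and its interval held 1 in FTC-133. EMB (embigin), another chaperone of monocarboxylate carriers and not a member, was at 12.7 TPM with CRABP1, against 18.6 TPM with vector, in 8505C, and at 12.2 TPM, against 40.7 TPM, in FTC-133, with log2 ratios of -0.52 and -1.66.

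Of the glycogen enzymes, GYS1, the muscle type glycogen synthase, had similar ratios of 0.810 (0.754 to 0.872) in 8505C and 0.821 (0.759 to 0.888) in FTC-133. PGM1, which links glucose 1-phosphate to glycolysis, was at 48.4 TPM with CRABP1, against 57.4 TPM with vector, in 8505C, and at 70.4 TPM, against 105 TPM, in FTC-133. GBE1, the branching enzyme, was at 98.2 TPM with CRABP1, against 90.4 TPM with vector, in 8505C, and at 85.0 TPM, against 147 TPM, in FTC-133. Its ratios were 1.09 (1.03 to 1.15) and 0.579 (0.550 to 0.609), so that FTC-133 with vector stood above the other libraries.

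The lines themselves differed in their isoenzymes. In limma, with the transfections as replicates of a line, 15 of the 36 members passed the adjusted p for 8505C minus FTC-133, 5 higher and 10 lower in 8505C. That was 41.7% of members, beside 35.2% of all genes (13% higher and 22.2% lower), so the number of members called was near the background. The median of this difference was -0.19 over all genes and -0.19 over the members. Scaling by the median ratio moved the median of all genes to -0.05. It also moved the split of calls over all genes to 3177 higher and 3447 lower, against 2542 and 4335 with TPM as deposited, and left 11 of the 15 members called.

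SLC16A3 had the widest gap. Its mean log2 level was 5.91 in 8505C and 1.42 in FTC-133, a difference of 4.49 (SE 0.146, limma adjusted p = 0.00336). The plain ratio of 8505C over FTC-133 was 39.1 (30.7 to 50.7) between the CRABP1 libraries and 32.1 (26.2 to 39.7) between the vector libraries. ENO3 was the reverse, with mean log2 levels of 1.53 in 8505C and 5.12 in FTC-133, a difference of -3.59 (SE 0.158, limma adjusted p = 0.00387). These 2 genes were called under all 8 alternative settings, and no other member was. SLC16A3 thus made 42.4% and 48.6% of the summed TPM of SLC16A1 and SLC16A3 in 8505C, with CRABP1 and with vector. Its share in FTC-133 was 0.996% and 1.44%. SLC16A1 was lower in 8505C by 0.95 (SE 0.0969, limma adjusted p = 0.0105).

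LDHA and ENO1 were higher in 8505C. The LDHA difference was 1.29 (SE 0.235, limma adjusted p = 0.0283), and its plain ratio was 3.23 (3.18 to 3.29) between the CRABP1 libraries and 1.86 (1.84 to 1.89) between the vector libraries. For ENO1 the difference was 1.18 (SE 0.174, limma adjusted p = 0.0193), with plain ratios of 2.67 and 1.93. PFKL, at 0.59, and ALDOA, at 1.30 and uncertain as above, also passed as higher. Lower in 8505C were PFKFB2 (-1.45), HK2 (-1.18), PFKFB4 (-1.02), ENO2 (-0.87), PGAM1 (-0.78), PFKM (-0.71), PGM1 (-0.70) and HK1 (-0.52), with limma adjusted p-values from 0.0126 to 0.0335. Under median-ratio scaling PFKFB4, ENO2, PGM1 and HK1 no longer passed, while BSG, GYS1 and PDHA1 did.

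For SLC2A1 the difference of -1.54 did not pass (SE 0.385, limma adjusted p = 0.0527). Its plain ratio of 8505C over FTC-133 was 0.563 between the CRABP1 libraries and 0.207 between the vector libraries. SLC2A3 did not pass either (0.70, SE 0.592, limma adjusted p = 0.406), and its ratio was 0.742 between the CRABP1 libraries and 3.65 between the vector libraries. For these transporters the gap between the lines thus depended on which transfection was compared.

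**Figure D4:**
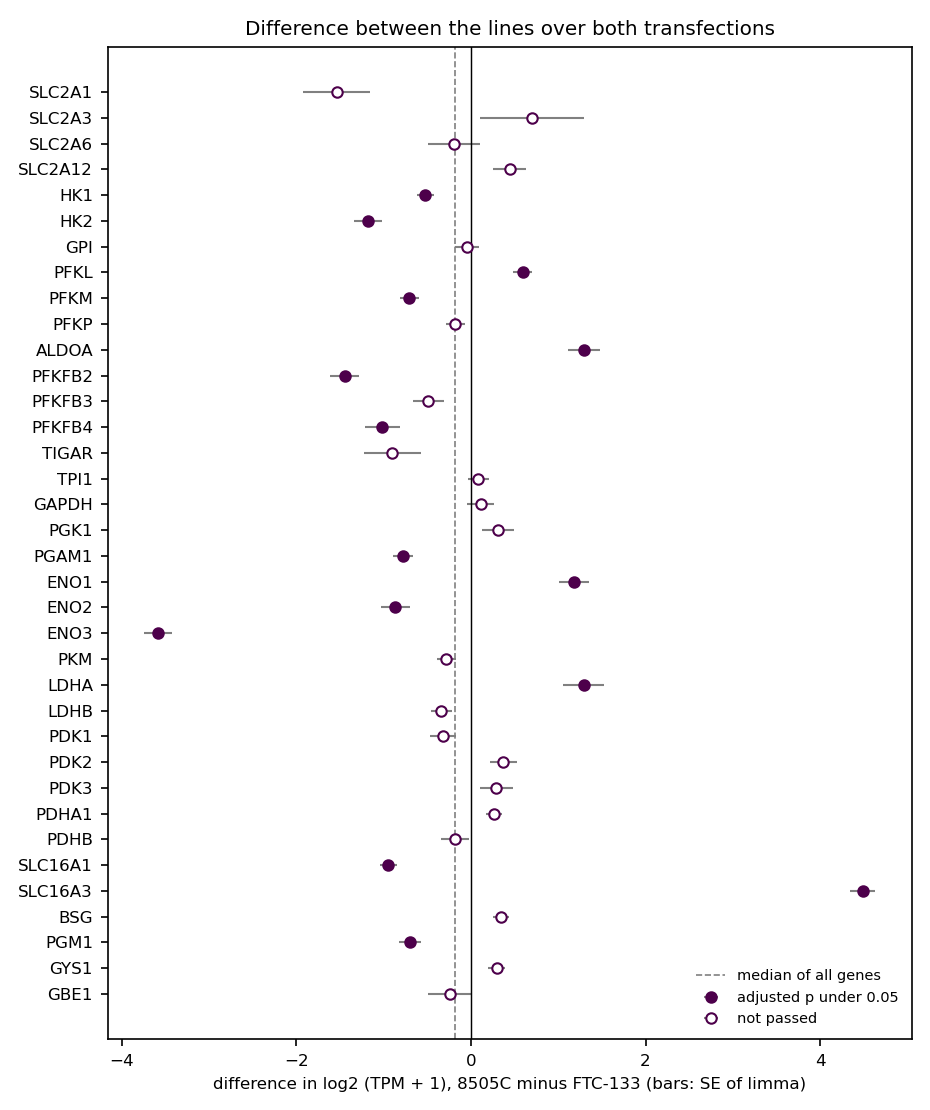
Difference of each tested member in log2 (TPM + 1), 8505C minus FTC-133 over both transfections, with bars of 1 limma SE, filled points for an adjusted p under 0.05, and a dashed line at the median of all genes (-0.19). SLC16A3 (4.49) and ENO3 (-3.59) lie farthest from 0.

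Other genes tied to the pathway were described from lists named for their function. Of 29 hypoxia-inducible genes outside glycolysis, 23 were below 0 in each line, with medians of -0.29 in 8505C and -0.45 in FTC-133, where 45.3% and 42.2% of all genes tested were below 0. In FTC-133, where 4.92% of all genes were 2-fold lower, CA9, IGFBP3, AK4, ANGPTL4, P4HA1 and BNIP3 were at least 2-fold lower with CRABP1, and ADM was 2-fold higher. CA9, a carbonic anhydrase used as a marker of hypoxia, was at 0.858 TPM with CRABP1, against 2.69 TPM with vector, in 8505C, and at 13.3 TPM, against 66.3 TPM, in FTC-133. In limma over both lines none of the 29 passed the adjusted p, and 11 had an unadjusted p under 0.05, against 923 of all 19513 genes. HIF1A was at 505 and 562 TPM in 8505C and at 2095 and 2731 TPM in FTC-133, and EPAS1 at 145 and 167 TPM in 8505C and at 67.3 and 41.5 TPM in FTC-133, with CRABP1 and with vector. Levels of HIF1A RNA do not measure the protein, which is set by its breakdown.

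MYC was at 116 TPM with CRABP1, against 102 TPM with vector, in 8505C, and at 77.7 TPM, against 43.0 TPM, in FTC-133. TXNIP, which restrains glucose uptake and is induced by glucose, was at 372 TPM with CRABP1, against 406 TPM with vector, in 8505C, and at 244 TPM, against 439 TPM, in FTC-133. The other lists are set beside all genes tested, of which 54.7% were above 0 in 8505C and 57.8% in FTC-133. In the pentose phosphate list, 9 of 10 measured genes were above 0 in 8505C and 8 of 10 in FTC-133, with medians of 0.12 and 0.13. In the serine branch, 4 of 5 were above 0 in 8505C and 5 of 5 in FTC-133, with medians of 0.33 and 0.57. PSAT1, an aminotransferase of serine synthesis, was at 254 TPM with CRABP1, against 93.1 TPM with vector, in 8505C, and at 458 TPM, against 267 TPM, in FTC-133. The hexosamine pathway had 4 of 8 genes above 0 in each line. Glycogen metabolism outside the set had 5 of 16 in 8505C and 11 of 19 in FTC-133. The glycerol and redox shuttles had 6 of 10 and 5 of 11. Glycolysis genes outside the set had 1 of 4 in 8505C and 4 of 5 in FTC-133, with medians of -0.06 and 0.32. Gluconeogenesis had 2 of 3 and 3 of 3, and the pyruvate dehydrogenase list 6 of 7 and 5 of 8. Other glucose and monocarboxylate carriers had 1 of 12 and 5 of 12, and regulators of glycolysis 10 of 25 and 11 of 25. Of the tricarboxylic acid cycle, 11 of 18 genes (61.1%) were above 0 in 8505C and 10 of 18 (55.6%) in FTC-133, near the shares of all genes. ACO1, an aconitase and its only gene past 2-fold, was at 84.8 TPM with CRABP1, against 38.05 TPM with vector, in FTC-133. GFPT2, which feeds the hexosamine pathway, was at 6.06 TPM with CRABP1, against 15.8 TPM with vector, in 8505C, and at 23.9 TPM, against 11.0 TPM, in FTC-133. In limma over both lines, no gene of these lists passed the adjusted p.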

How the data were processed

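Total RNA was sequenced in 4 libraries, 1 per group. The authors deposited 1 table of TPM values for 58884 Ensembl genes, each column scaled to 1000000. The tools were Trimmomatic 0.38, FastQC and featureCounts 2.0.0 with the GRCh38 build, per the submitters' processing notes. Aligner, annotation and strandedness: not given in the sources used here.

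Each TPM value was multiplied by the gene's union exon length in GENCODE 29 and divided by the worth of 1 read in its library. Of the results at or under 50 reads, 90.7% to 91.7% per library were within 0.02 of a whole number. For 15 of the 38 members the product was not whole in every library (within 0.05), so their read numbers are approximate. Whether their annotated length differed from the authors' was not tested. Recovered reads served for 95% Clopper-Pearson intervals, the floor of 3 reads and a filter of 20 reads. Intervals and floors cover counting error only.

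Ratios within a line were log2 of TPM plus a pseudocount of 1, for genes averaging 1 TPM or more, with a 2-fold rule and no test. Over all libraries, limma 3.58.1 (R 4.3.3) with a mean-variance trend was fitted to log2(TPM + 1) with line and transfection as terms, with two-sided Benjamini-Hochberg adjusted p-values over all 19513 genes. Isoenzyme shares are shares of summed TPM. The rest used SciPy 1.17.1, NumPy 2.4.6 and pandas 2.3.3 under Python 3.11.15. Symbols came from a gene name table.

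The members and lists were chosen with earlier results of these data known. All 38 members are described. Of the other lists, genes past 2-fold in a line were eligible (at most 4 each way per list and line), with HIF1A, EPAS1, MYC and TXNIP. BNIP3, P4HA1, CRABP1, the markers, SLC2A8, SLC2A10, SLC2A13, SLC2A14 and PDK4 are named besides, as checks or to complete counts. Each choice was varied alone: median-ratio scaling, a pseudocount of 0.1, a floor of 5 TPM on the mean or none, removal of the 37 mitochondrially encoded genes, protein-coding genes with at least 20 reads, a 1.5-fold rule, limma without its trend or with 1 term only, and shares over every gene of a step or over reads.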

Additional observations from a re-analysis of the deposited data

Results flagged for a closer look

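SLC2A3 lay in opposite directions in the lines: its log2 ratio of CRABP1 over vector was -0.79 in 8505C and 1.45 in FTC-133, and both counting intervals excluded a ratio of 1. GBE1 also lay in opposite directions, at 0.12 in 8505C and -0.78 in FTC-133, again with both counting intervals on their own side of 1. Neither difference between the lines was tested, since each group held 1 library.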

How the results depend on the processing

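No direction of a called result reversed. Below 2-fold, a 1.5-fold rule gave 2 members lower in 8505C (0 by the 2-fold rule), and 3 higher and 9 lower in FTC-133 (1 each by the 2-fold rule). Over all genes, that rule gave 1297 higher and 1341 lower in 8505C (649 and 715 at 2-fold), and 2598 and 1928 in FTC-133 (1198 and 979). A mean of at least 5 TPM left 97 and 121 genes 2-fold higher and lower in 8505C and 354 and 237 in FTC-133. Protein-coding genes with at least 20 reads left 29 and 60 in 8505C and 263 and 187 in FTC-133, and no filter gave 1117 and 1162 in 8505C.

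For 8505C minus FTC-133 in limma, members higher in 8505C numbered 5, and 2 without the trend, 1 without a filter and 8 under median-ratio scaling. Members lower numbered 10, and 3, 1 and 6 under the same settings. Over all settings, 246 member differences between the lines kept their side of the threshold, 33 lost the call and 8 gained it. Without a filter 1182 genes in all were called, against 6877. For CRABP1 against vector over both lines, the members called remained at 0 under all alternatives, and the 1 gene called in all became 0 under 6 of the 8. Of member ratios within a line, 401 stayed within counting error and 22 moved, 13 under median-ratio scaling and 9 without mitochondrial genes. PFKFB2 in 8505C and SLC2A12 in FTC-133, both near 0, changed sign under these scalings. Of isoenzyme shares 72 stayed and 16 moved. The cause of these changes was not tested. The limma fit of CRABP1 against vector was already paired by line, and 0 members were called without that term. The labels give no replicate numbers for any other pairing. Leaving out a library would leave limma no residual degree of freedom. Differences within the counting intervals could not be detected at this depth.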
